A study of Mus musculus with 6 samples.

Results

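Chemokines and chemokine receptors were followed in mammary glands of female mice at 10 and 5 weeks of age. The members were the genes whose single symbol in the platform annotation began with Ccl, Cxcl, Cx3cl, Ccr, Cxcr or Cx3cr and a number, or was Xcl1 or Xcr1, leaving out Ccl28, Cxcl13 and Ccl21a. This gave 48 genes, 31 ligands and 17 receptors, of 18193 genes with a single symbol, on 73 probe sets. Each gene was read on its brightest probe set. All animals were bitransgenic. They carried the transgene of the line that the labels name LH mouse and that of MMTV-neu, where a mouse mammary tumour virus promoter drives the neu (Erbb2) oncogene, chiefly in mammary epithelium. Each age had 3 arrays of total RNA, and each array held a pool of 3 animals, so that 9 animals stood for each age. Both ages carried both transgenes, and no mice without them were analysed here.

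Chemokines are small secreted or membrane-bound proteins that direct the movement of leukocytes. They are grouped as CC, CXC, CX3C and XC ligands by the spacing of their first cysteines, and they act through G protein-coupled receptors with overlapping ligand sets. In the mammary gland, macrophages and eosinophils gather around growing ducts during puberty, and epithelium, fibroblasts and leukocytes all make chemokines. In whole tissue, fewer cells of a type and less RNA per cell cannot be told apart.

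At 10 weeks, 5 members were higher and 5 lower than at 5 weeks. Higher were the ligands Cxcl16, Cxcl17 and Cxcl1 and the receptors Cxcr6 and Cx3cr1. Lower were the ligands Cxcl15, Ccl8, Ccl24, Cxcl12 and Ccl6. limma called 0 receptors lower, and 1 was lower at an unadjusted p under 0.05. A gene was called at an adjusted p under 0.05 by limma over all probe sets tested, where differences are on the log2(signal + 32) scale. This covered 27 members, since 21 fell into the dimmest 40% of probe sets and were not tested. The 10 calls are 37% of the members tested, against 34.1% of all 13002 genes tested, so the share of called members lay near the background. Of the genes tested 15.3% were higher and 18.7% lower, and of the members 5 of 27 each. The pools of the ages did not overlap in 13 of the 27 members, against 50.3% of all genes tested. Calls came from 8 of 19 ligands tested and from 2 of 8 receptors. The median difference was -0.0482 over these 27 members and -0.00368 over all genes tested. The 17 tested members that did not pass had differences between -0.75 and 0.83.

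**Figure D1:**
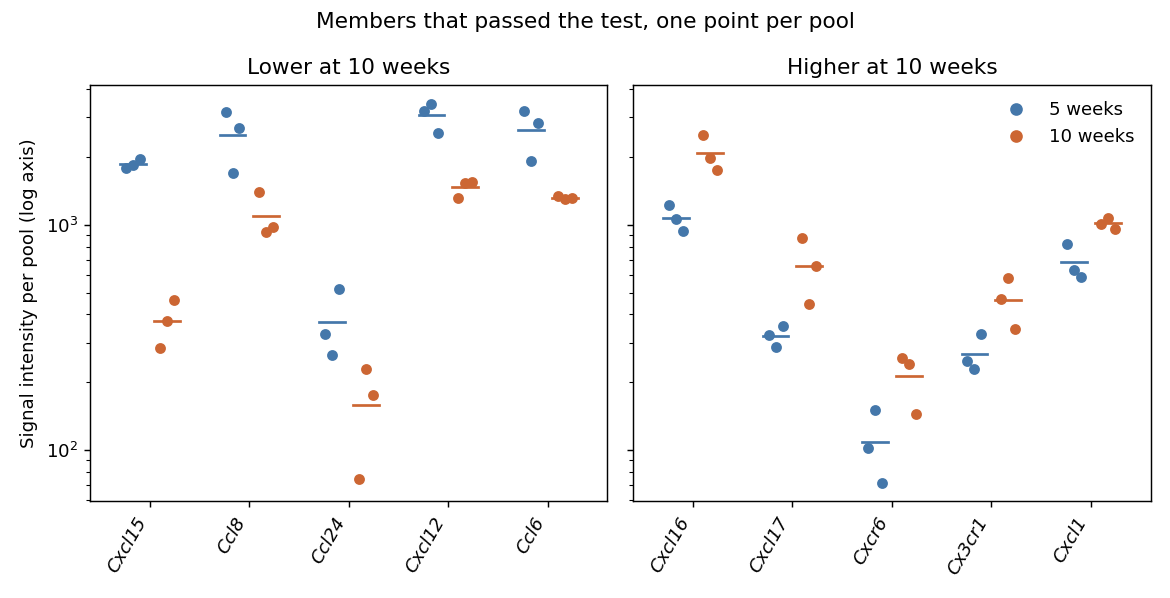
Signal intensity (log axis) of the 10 members that passed the test, in each of 3 pools at 5 weeks (blue) and 10 weeks (orange), with a line at the mean. For every gene but Cxcr6 the 3 pools of 1 age lie clear of those of the other, with Cxcl15 showing the widest gap.

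Median signals of the arrays lay between 156.4 and 172.5, and log2 signals correlated at 0.973 to 0.978 within an age and 0.932 to 0.955 between ages. Luminal epithelial markers were bright in all pools, with a summed signal over 12 genes of 68242 to 78862 at 10 weeks and 35157 to 45714 at 5 weeks. Skeletal muscle markers stood apart by pool. Their summed signal over 14 genes was 8232 in 10-week pool 1, 62480 and 66000 in the other 10-week pools and 82992 to 153363 at 5 weeks. Adipocyte markers fell in 3 of 8 cases (6 with quantile normalization). Of 9 basal epithelial markers 5 rose and 2 fell, with 3 higher when 5-week pool 2 was left out and 1 lower when any other single pool was. T cell and B cell markers were highest in 5-week pool 2, as described with Ccl5.

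**Figure D2:**
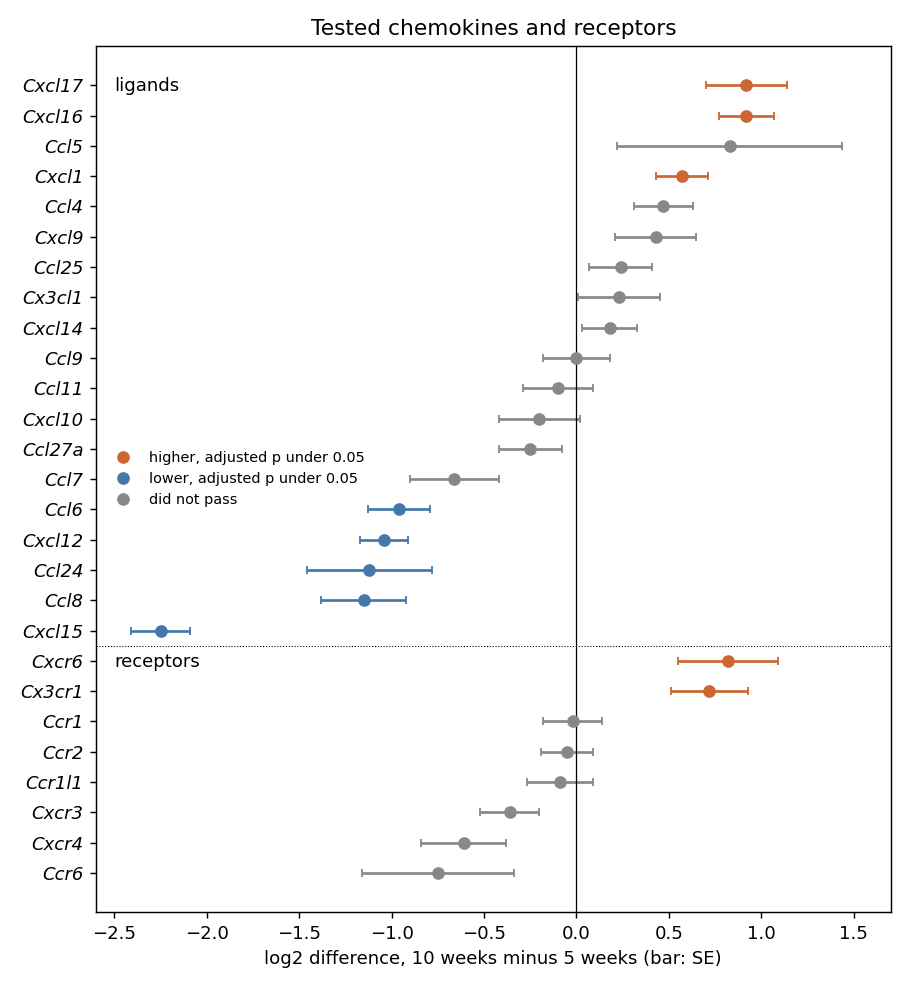
The log2 difference of 10 weeks minus 5 weeks with its SE for the 27 members tested, ligands above and receptors beneath the dotted line. Orange and blue points passed an adjusted p of 0.05, and grey points did not, among them Ccl5 with the widest SE, 0.61.

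The CXC ligands that attract neutrophils did not all move 1 way. Cxcl15, also called lungkine, had the largest difference of any member tested. Its signal was 284, 374 and 465 at 10 weeks and 1785, 1848 and 1957 at 5 weeks. Every 5-week pool was far above every 10-week pool, with a log2 difference of -2.25 ± 0.16 (SE, limma, adjusted p = 5.9e-05), and the second probe set gave -2.03 (adjusted p = 0.00225). Cxcl1, a neutrophil attractant that epithelium and macrophages release in inflammation, moved the other way. Its signal was 1013, 1076 and 960 at 10 weeks and 826, 632 and 586 at 5 weeks. The ages did not overlap, the log2 difference was 0.57 ± 0.14 (SE, limma, adjusted p = 0.0177), and all 3 of its probe sets were higher (0.57, 0.61 and 0.82). Cxcl1 missed the threshold in the fits that lacked 10-week pool 2 (0.53, adjusted p = 0.0616) or 1 of the 5-week pools 2 (0.52, 0.0519) and 3 (0.47, 0.0526). Cxcl2, a close relative of Cxcl1, was too dim to be tested, but its signal of 68.1 to 74.3 at 10 weeks lay above the 15.0 to 50.2 at 5 weeks. Cxcl3 and Cxcl5 had signals of 0.6 to 32.6 over the 6 pools, and the ages overlapped. Cxcr2, the neutrophil receptor of Cxcl1 and Cxcl2, was dim, at 41.0, 50.1 and 63.7 at 10 weeks and 28.3, 38.3 and 22.2 at 5 weeks. Among neutrophil markers, 1 of 8 tested was higher (S100a8, 1.49) and 1 lower (Il1r2, -1.10), and the summed signal of 10 genes was 1502 to 1790 at 10 weeks and 1286 to 1597 at 5 weeks. Leaving out 10-week pool 2 gave 2 lower neutrophil markers. The part of neutrophil number in these results was not tested.

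Cxcl5, Cxcl3, Cxcl15, Cxcl1 and Cxcl2 follow each other in this order on chromosome 5 in GRCm38.p6, within 150 kb of the next member. Cxcl15 and Cxcl1, neighbours among the members, were called in opposite directions. Of 7 such rows of members, no other held more than 1 call, so no other could hold calls both ways. The longest, with 7 receptors on chromosome 9, held 1 call, Cxcr6, beside 3 receptors that did not pass (Ccr1, Ccr1l1 and Ccr2) and 3 dim ones. The 250 bases before the start sites of Cxcl1, Cxcl2 and Cxcl15 are shown to compare these neighbours, from RefSeq on GRCm38.p6 (chr5:90890995-90891244, plus strand; chr5:90903649-90903898, plus strand; chr5:90794284-90794533, plus strand), 5′ to 3′. Capitals mark NF-kB-like letters, which are GGG, 5 bases of any kind and CC, on either strand, and overlapping matches run together.
Cxcl1: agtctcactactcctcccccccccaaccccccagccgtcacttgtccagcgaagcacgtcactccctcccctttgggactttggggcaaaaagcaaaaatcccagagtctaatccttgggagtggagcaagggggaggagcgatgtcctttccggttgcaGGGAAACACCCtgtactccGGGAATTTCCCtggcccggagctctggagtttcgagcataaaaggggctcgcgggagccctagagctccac
Cxcl2: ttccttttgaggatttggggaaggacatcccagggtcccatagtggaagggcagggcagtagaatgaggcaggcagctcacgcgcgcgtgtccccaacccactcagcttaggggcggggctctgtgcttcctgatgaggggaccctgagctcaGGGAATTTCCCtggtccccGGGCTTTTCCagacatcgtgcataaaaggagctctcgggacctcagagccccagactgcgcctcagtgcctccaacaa
Cxcl15: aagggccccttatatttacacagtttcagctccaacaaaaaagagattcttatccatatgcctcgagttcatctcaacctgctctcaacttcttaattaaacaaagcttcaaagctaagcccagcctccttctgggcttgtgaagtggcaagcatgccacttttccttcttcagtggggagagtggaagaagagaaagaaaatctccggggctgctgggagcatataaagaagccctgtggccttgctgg
These letters occur in the windows of Cxcl1, Cxcl2 and Cxcl3 and not in that of Cxcl15. Each of those 3 holds the run GGGAATTTCC, which was picked after it was seen, is in 4 of the 35 members with a promoter in the table (the other is Ccr3) and is in 0.0852% of 32851 windows of this length, counting both strands. The looser letters are common. They are in 54.3% of these 35 members and in 45.8% of all windows. A match of letters is a description and not a site of binding. Interferon-response-like letters (TTTC, 2 bases of any kind and TTTC) were in 2 of the 35 members (Cxcl10 and Cxcl14; 2.98% of all windows), and STAT-like letters (TTCNNNGAA) in 4 (7.02% of all windows).

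**Figure D3:**
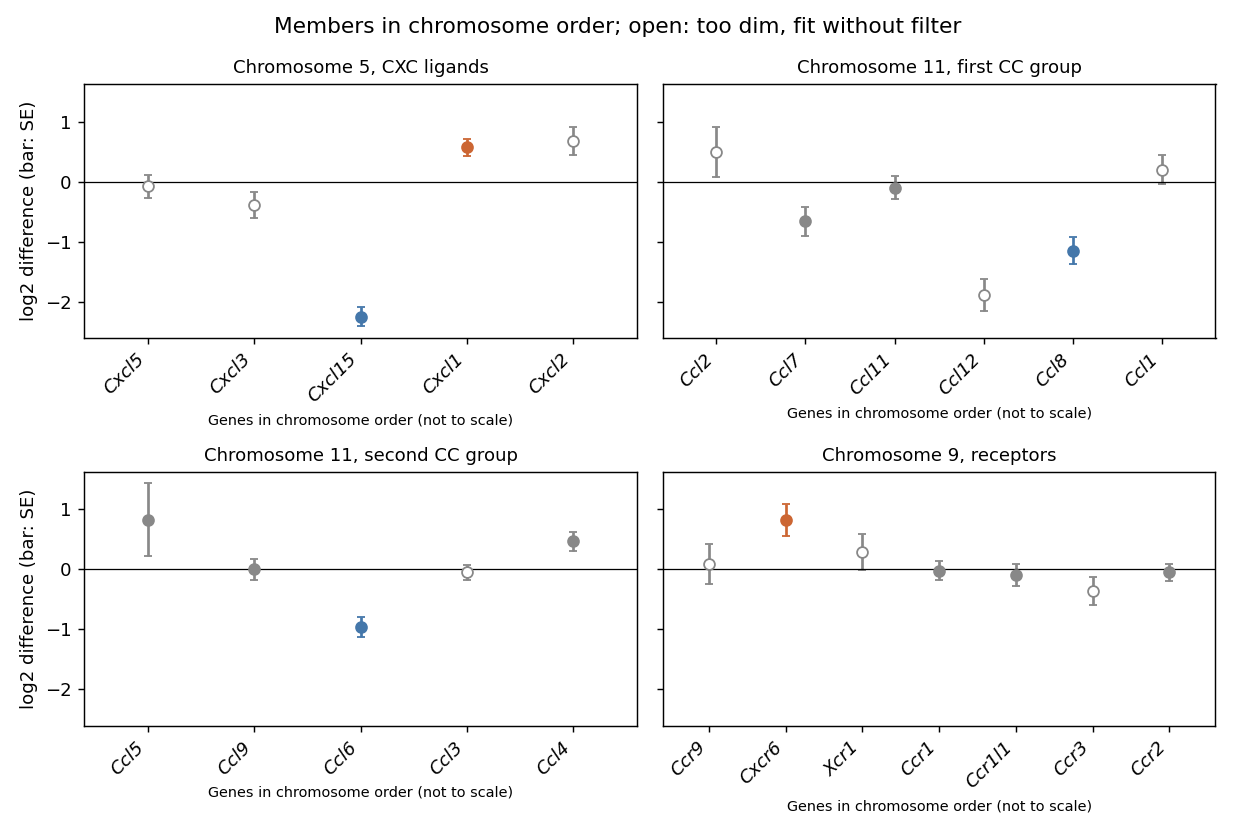
The log2 difference with its SE for members that are neighbours on chromosomes 5, 11 and 9, in chromosome order and not to scale. Orange points were higher and blue points lower at an adjusted p of 0.05, filled grey points did not pass, and open points were too dim and come from a fit with no filter, such as Ccl12 at -1.89.

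Cxcl12, which stromal cells make to retain cells that carry Cxcr4, was lower at 10 weeks. Its signal was 1318, 1530.3 and 1549 at 10 weeks and 3195, 3443 and 2552 at 5 weeks. Each 5-week pool exceeded each 10-week pool, and the log2 difference was -1.04 ± 0.13 (SE, limma, adjusted p = 0.000653), with -1.62 on a second probe set. Cxcr4, its receptor on leukocytes and progenitors, had signals of 296, 460.4 and 565 at 10 weeks and 573, 641 and 817 at 5 weeks. These ranges were apart by a narrow gap, and the difference of -0.61 ± 0.23 (SE) did not pass (limma, adjusted p = 0.0726) except without 10-week pool 3 (-0.80, adjusted p = 0.0375). Ackr3, an atypical receptor that takes up Cxcl12 and is no member, fell by 0.76 ± 0.16 (SE, limma, adjusted p = 0.00731). Cxcl14, an epithelial and stromal CXC ligand, had a signal of 1674 to 2386 at 10 weeks and 1533 to 2019.9 at 5 weeks and did not pass (0.18 ± 0.15 SE, limma, adjusted p = 0.417). Of 13 fibroblast markers tested, 12 fell, and their summed signal was 57551 to 63436 at 10 weeks and 92386 to 108392 at 5 weeks. Endothelial markers fell in 8 of 12 cases, with a summed signal of 8146 to 10249 at 10 weeks and 12434 to 14670 at 5 weeks. Leaving out 10-week pool 1 and 5-week pool 2 together gave 5 lower endothelial markers. The part of these cells in the Cxcl12 difference was not tested. The 250 bases before the Cxcl12 start site (chr6:117168285-117168534, plus strand, GRCm38.p6, RefSeq) are shown because Cxcl12 fell on both of its tested probe sets, with capitals as for Cxcl1.
Cxcl12: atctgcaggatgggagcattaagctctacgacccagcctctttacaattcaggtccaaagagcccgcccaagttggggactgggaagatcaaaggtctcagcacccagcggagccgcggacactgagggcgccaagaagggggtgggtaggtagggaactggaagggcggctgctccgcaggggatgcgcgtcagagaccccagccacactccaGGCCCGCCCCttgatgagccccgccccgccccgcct
The only NF-kB-like match in this window is GGCCCGCCCC, within a run rich in C and G next to the start site.

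CC ligands of monocytes, macrophages and eosinophils were lower where they were called. Ccl8, a ligand of Ccr8 in mice that tissue macrophages make, had signals of 1393, 927 and 978 at 10 weeks and 3158, 1694 and 2686 at 5 weeks. Ccl8 was higher in every 5-week pool, with a log2 difference of -1.15 ± 0.23 (SE, limma, adjusted p = 0.0067). Ccl6, a myeloid ligand of Ccr1, was nearly level across the 10-week pools at 1344, 1300.1 and 1312, and stood at 3188, 1928 and 2828 at 5 weeks. Its difference was -0.96 ± 0.17 (SE, limma, adjusted p = 0.00347), while its second probe set gave -0.37 and did not pass (adjusted p = 0.132). On that second probe set the ages overlapped, at 445 to 548 at 10 weeks and 531 to 816 at 5 weeks. Ccl24, or eotaxin-2, which draws eosinophils through Ccr3, had signals of 74.1, 229 and 174.9 at 10 weeks and 328, 263 and 518 at 5 weeks. The gap between the ages was narrow, and the difference was -1.12 ± 0.34 (SE, limma, adjusted p = 0.0393). Ccl24 missed the threshold with no filter (adjusted p = 0.0766), and when 10-week pool 1 (-0.74, 0.0944), 10-week pool 3 (-1.22, 0.0646), 5-week pool 1 (-1.17, 0.0743) or 5-week pool 3 (-0.87, 0.127) was left out.

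Ccl12, a monocyte attractant that acts through Ccr2, had signals of 12, 10.6 and 46.0 at 10 weeks and 147, 179 and 163 at 5 weeks. It was too dim on average to be tested, and with no filter the difference was -1.89 ± 0.27 (SE, limma, adjusted p = 0.0031). The windows before the start sites of Ccl12 (chr11:82101595-82101844, plus strand) and its neighbour Ccl8 (chr11:82114935-82115184, plus strand), from RefSeq on GRCm38.p6, are shown because these 2 genes lay next to each other and were both lower at 10 weeks.
Ccl12: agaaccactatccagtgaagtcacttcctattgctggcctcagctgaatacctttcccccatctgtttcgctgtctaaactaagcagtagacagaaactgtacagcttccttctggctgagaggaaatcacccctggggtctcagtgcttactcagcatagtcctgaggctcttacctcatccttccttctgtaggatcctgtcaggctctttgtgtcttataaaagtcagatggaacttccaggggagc
Ccl8: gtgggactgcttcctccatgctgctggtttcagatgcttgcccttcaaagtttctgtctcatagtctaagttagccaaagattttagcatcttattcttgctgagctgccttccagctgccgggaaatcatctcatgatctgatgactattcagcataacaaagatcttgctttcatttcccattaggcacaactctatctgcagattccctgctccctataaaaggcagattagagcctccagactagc
Neither holds the 3 sets of letters searched. On chromosome 11 the order of members is Ccl2, Ccl7, Ccl11, Ccl12, Ccl8 and Ccl1. Of the others in this row, Ccl7, a monocyte attractant, had signals of 83.4, 78.4 and 138 at 10 weeks and 191, 208 and 126 at 5 weeks. Here 10-week pool 3 and 5-week pool 3 changed places, with a difference of -0.66 ± 0.24 (SE) that did not pass (limma, adjusted p = 0.0716) except without 10-week pool 3 (-0.85, 0.0388) or 5-week pool 3 (-0.84, 0.0443). Ccl11, or eotaxin, had signals of 427 to 568 at 10 weeks and 388 to 640.2 at 5 weeks, and a difference of -0.10 ± 0.19 (SE, limma, adjusted p = 0.741). Ccl2, the main monocyte attractant, was dim, at 109, 74.1 and 139 at 10 weeks and 34.0, 40.5 and 163 at 5 weeks, so the ages overlapped through 5-week pool 3. In the second row on chromosome 11, Ccl6 lies between Ccl9 and Ccl3. Ccl9, a ligand of Ccr1 like Ccl6, had signals of 1849 to 2367 at 10 weeks and 1537 to 2503 at 5 weeks, with a log2 difference of -0.00 ± 0.18 (SE, limma, adjusted p = 0.991).

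Among receptors of these ligands, Ccr1 and Ccr2 were tested and did not pass, and Ccr3 and Ccr8 were too dim to be tested. Ccr2, the receptor of inflammatory monocytes, had signals of 303, 282 and 272 at 10 weeks and 294, 275 and 321 at 5 weeks, and a difference of -0.05 ± 0.14 (SE, limma, adjusted p = 0.828). Its other 3 probe sets gave -0.28, -0.49 and -0.67, and none passed (adjusted p = 0.427, 0.0854 and 0.0633). On the one with -0.49 the ages did not overlap, at 84.9 to 127.9 at 10 weeks and 140.0 to 174.9 at 5 weeks. Ccr1, the receptor of Ccl6 and Ccl9 on myeloid cells, had signals of 195 to 209 at 10 weeks and 184 to 239 at 5 weeks, a difference of -0.02 ± 0.16 (SE, limma, adjusted p = 0.924), with ages that overlapped. Its relative Ccr1l1 lay at 81.2 to 114 at 10 weeks and 105 to 114 at 5 weeks. Ccr3, the eotaxin receptor, was dim, at 9.8 to 18.5 at 10 weeks and 11.8 to 50.0 at 5 weeks. Macrophage markers were mixed, with 4 of 15 lower and 3 higher, and their summed signal was 31676 to 34022 at 10 weeks and 35122 to 38611 at 5 weeks. Lower were Mrc1, Cd163 and Folr2, markers of resident macrophages, and Csf1r (-1.70 to -0.28), and higher were Mpeg1, Lyz2 and Adgre1 (0.32 to 0.82). Only 1 macrophage marker was higher when 10-week pool 1, 10-week pool 3 or 5-week pool 1 was left out, and likewise with no filter or no variance trend. Of eosinophil and mast cell markers, the 4 tested, all mast cell protease genes, fell (-1.40 to -0.63), and the summed signal of 11 genes was 917 to 1389 at 10 weeks and 1892 to 2926 at 5 weeks. The listed Fcer1a, Ms4a2, Tpsab1 and Hdc were too dim to be tested, and the ages overlapped in each. The eosinophil markers Prg2 and Siglecf were at 2.0 to 59.2 in all pools, with overlapping ages. Il5ra, the eosinophil receptor chain for interleukin-5, was too dim to be tested and did not overlap, at 12.2, 44.7 and 35.3 at 10 weeks and 86.8, 46.3 and 66.1 at 5 weeks. The part of these cell types in the ligand differences was not tested.

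Cxcl16 and its receptor Cxcr6 were both higher at 10 weeks. Of 11 ligand and receptor pairs with both genes tested, theirs was the only 1 in which both were called. Several of the 11 pairs share a receptor (Ccr1, Ccr2 or Cxcr3), and 34.1% of all genes tested were called. In the other 21 of 32 pairs on the array at least 1 gene was too dim. Cxcl16 is a membrane-bound CXC ligand of epithelium and antigen-presenting cells that can be shed. Its signal was 2501, 1985 and 1755 at 10 weeks and 1221, 1067 and 941 at 5 weeks. The 10-week pools all stood above the 5-week pools, with a log2 difference of 0.92 ± 0.15 (SE, limma, adjusted p = 0.00243) and 0.69 on its second probe set (adjusted p = 0.0121). Cxcr6, carried by T cells, NK cells and innate lymphoid cells, had signals of 256, 242 and 144.7 at 10 weeks and 102, 151 and 71.8 at 5 weeks. The ages overlapped, with 10-week pool 3 beneath 5-week pool 2, and the difference was 0.82 ± 0.27 (SE, limma, adjusted p = 0.0477). Cxcr6 missed the threshold with no filter (adjusted p = 0.0936), and when 10-week pool 1 (0.69, 0.145), 10-week pool 2 (0.72, 0.133), 5-week pool 1 (0.80, 0.104) or 5-week pool 3 (0.62, 0.139) was left out. On its second probe set, too dim to be tested, the ages did not overlap, at 74.4, 62.0 and 46.6 at 10 weeks and 25.7, 34.5 and 18.9 at 5 weeks.

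Cx3cr1, the receptor of monocytes, macrophages and other myeloid cells for the membrane-bound ligand Cx3cl1, was higher. Its signal was 469.8, 581 and 346 at 10 weeks and 249, 229 and 326 at 5 weeks. The lowest 10-week pool lay just above the highest 5-week pool, with a difference of 0.72 ± 0.21 (SE, limma, adjusted p = 0.0305). It missed the threshold with no filter (adjusted p = 0.055), and when 10-week pool 1 (0.69, 0.0833), 10-week pool 2 (0.55, 0.1), 5-week pool 1 (0.67, 0.0819) or 5-week pool 2 (0.62, 0.0834) was left out. A second Cx3cr1 probe set, too dim to be tested, overlapped, at 58.4, 123 and 46.4 at 10 weeks and 101, 57.1 and 46.6 at 5 weeks, and did not show the rise. Cx3cl1 had signals of 422 to 449.5 at 10 weeks and 256 to 518 at 5 weeks, and its difference of 0.23 ± 0.22 (SE) did not pass (limma, adjusted p = 0.47). A second tested Cx3cl1 probe set gave 0.52 ± 0.21 (SE) and did not pass either (limma, adjusted p = 0.0936). A dim one overlapped, and another dim one did not, at 14.2 to 38.4 at 10 weeks and 3.4 to 11.7 at 5 weeks.

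Cxcl17, a mucosal ligand of barrier epithelium, had signals of 869.7, 447 and 658 at 10 weeks and 324, 287 and 356 at 5 weeks. No 5-week pool reached a 10-week pool, and the difference was 0.92 ± 0.22 (SE, limma, adjusted p = 0.0138). Ccl20, the epithelial ligand of Ccr6, was too dim on average to be tested, at 75.8, 194 and 248 at 10 weeks and 28.8, 22.1 and 31.2 at 5 weeks. All its 10-week pools were above its 5-week pools, and with no filter the difference was 1.68 ± 0.35 (SE, limma, adjusted p = 0.0147). Luminal epithelial markers rose in 10 of 12 cases. Of 6 plasma cell markers tested, 3 rose and 1 fell, with a summed signal of 6716 to 8724 at 10 weeks and 4861 to 5352 at 5 weeks. Igha and Sdc1 weighed on these sums in opposite directions. Igha was at 2565 to 4465 at 10 weeks and 326 to 461 at 5 weeks. Sdc1 was at 1937 to 2112 at 10 weeks and 3250 to 3871 at 5 weeks. The part of the epithelial share in these differences was not tested.

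**Figure D4:**
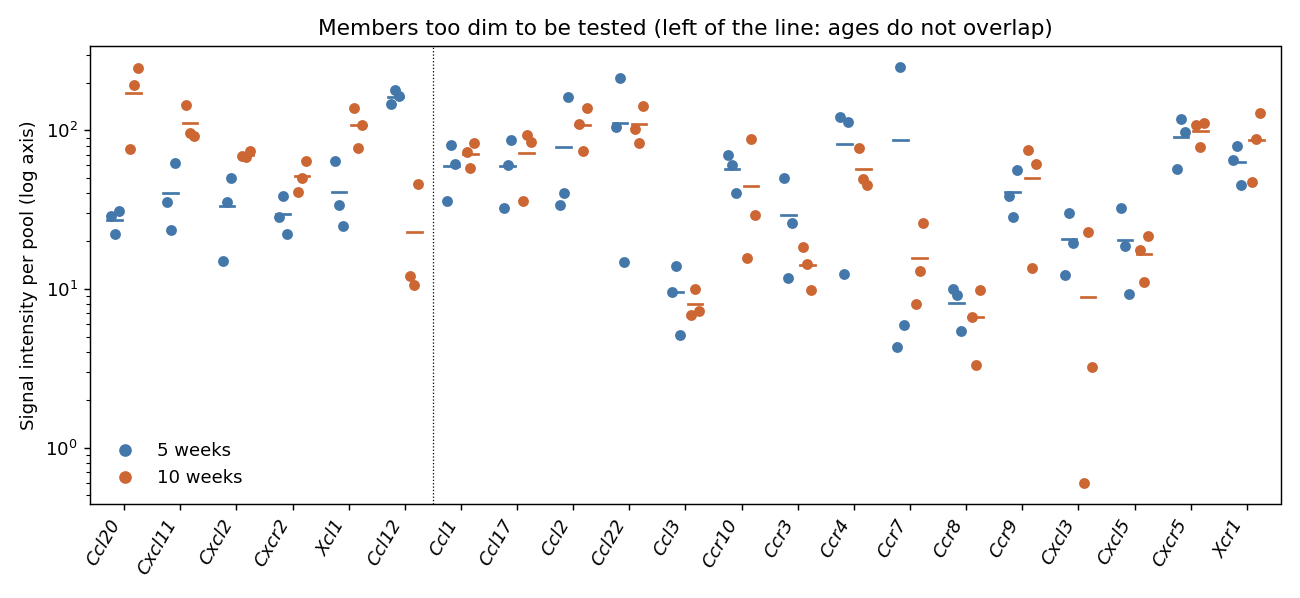
Signal intensity (log axis) of the 21 members too dim to be tested, in each of 3 pools at 5 weeks (blue) and 10 weeks (orange), with a line at the mean. In the 6 genes left of the dotted line the ages do not overlap, as in Ccl20 and Ccl12.

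Of the 21 dim members, the ages did not overlap in 6, or Ccl20, Cxcl11, Cxcl2, Cxcr2 and Xcl1 with 10 weeks above and Ccl12 with 10 weeks below. Over all 5191 genes left out for low signal the ages did not overlap in 22%. With no filter, 4 of the 21 were called (Ccl20, Cxcl11 and Xcl1 higher and Ccl12 lower), against 6.28% of those 5191 genes. Members just under the filter, at a mean log2 value of 7.07, were Ccl22 (6.99), Cxcr5 (6.96) and Ccl2 (6.85), and just over it were Ccr1l1 (7.10), Ccr6 (7.16) and Ccl7 (7.34). Dim members other than Ccl2, Ccr7 and Cxcr2, and among the tested Ccr1, Ccr1l1, Ccr6, Ccl7, Ccl25, Cxcl10 and Cxcr3, were singled out after their values were seen.

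The interferon-inducible ligands of Cxcr3, which draw activated T cells and NK cells, did not move as a set. Cxcl9 had signals of 444.9, 337 and 296 at 10 weeks and 203, 356 and 229 at 5 weeks. Only 5-week pool 2 reached into the 10-week range, and the difference of 0.43 ± 0.22 (SE) did not pass (limma, adjusted p = 0.188) except without that pool (0.64, 0.0497). Cxcl10 had signals of 93.6, 161 and 119 at 10 weeks and 128, 184 and 127 at 5 weeks, which overlapped, and a difference of -0.20 ± 0.22 (SE, limma, adjusted p = 0.541). Cxcl11 was dim, at 145, 95.9 and 92.2 at 10 weeks and 35.3, 23.4 and 61.8 at 5 weeks, and with no filter its difference was 1.0 ± 0.26 (SE, limma, adjusted p = 0.0365). Cxcr3 had signals of 137, 148 and 136 at 10 weeks and 203, 201 and 164 at 5 weeks, with a difference of -0.36 ± 0.16 (SE) that did not pass (limma, adjusted p = 0.132). On these probe sets Cxcr3 was lower at 10 weeks in each pool, while Cxcl11 was higher in each and Cxcl9 and Cxcl10 overlapped. Second probe sets of Cxcl11 and Cxcl9, too dim to be tested, differed from this. That of Cxcl11 overlapped, at 7.5, 67.6 and 33.6 at 10 weeks and 36.6, 74.0 and 40.9 at 5 weeks. That of Cxcl9 did not overlap, at 104.4, 78.7 and 103.5 at 10 weeks and 57.8, 72.3 and 76.6 at 5 weeks.

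Ccl5, or RANTES, a ligand that T cells and NK cells release, differed more among the 5-week pools than between ages. Its signal was 767, 864 and 817 at 10 weeks and 212, 1598 and 241 at 5 weeks. The difference of 0.83 ± 0.61 (SE) did not pass (limma, adjusted p = 0.343), and without 5-week pool 2 it was 1.71 (adjusted p = 0.000316). The same pool stood out in Ccr7, which guides T cells, B cells and dendritic cells into lymph nodes, at 251.5 against 4.3 to 26.0 in the other pools. Ccr6, a receptor of B cells and some T cells, was 322 in it and 39.4 to 118 elsewhere, and its difference of -0.75 ± 0.41 (SE) did not pass (limma, adjusted p = 0.208). T cell markers had a summed signal over 13 genes of 5255 in 5-week pool 2, 1947 and 2004 in the other 5-week pools and 1782 to 2942 at 10 weeks. Zap70 weighed on these sums, at 988.3 and 1011.7 in 5-week pools 1 and 3 and 128.5 in 10-week pool 2. The mean log2 value of the 13 genes was 8.56 in 5-week pool 2, 6.82 and 6.91 in the other 5-week pools and 7.21 to 7.63 at 10 weeks. B cell and lymph node markers had 5558 over 12 genes in 5-week pool 2, 1233 and 1569 in the other 5-week pools and 1380 to 2061 at 10 weeks. limma called 0 of the 9 T cell and 10 B cell markers tested (1 and 1 at an unadjusted p under 0.05), and 3 T cell markers were higher when 5-week pool 2 was left out. The part of lymph node content in the Ccl5, Ccr6 and Ccr7 values was not tested.

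**Figure D5:**
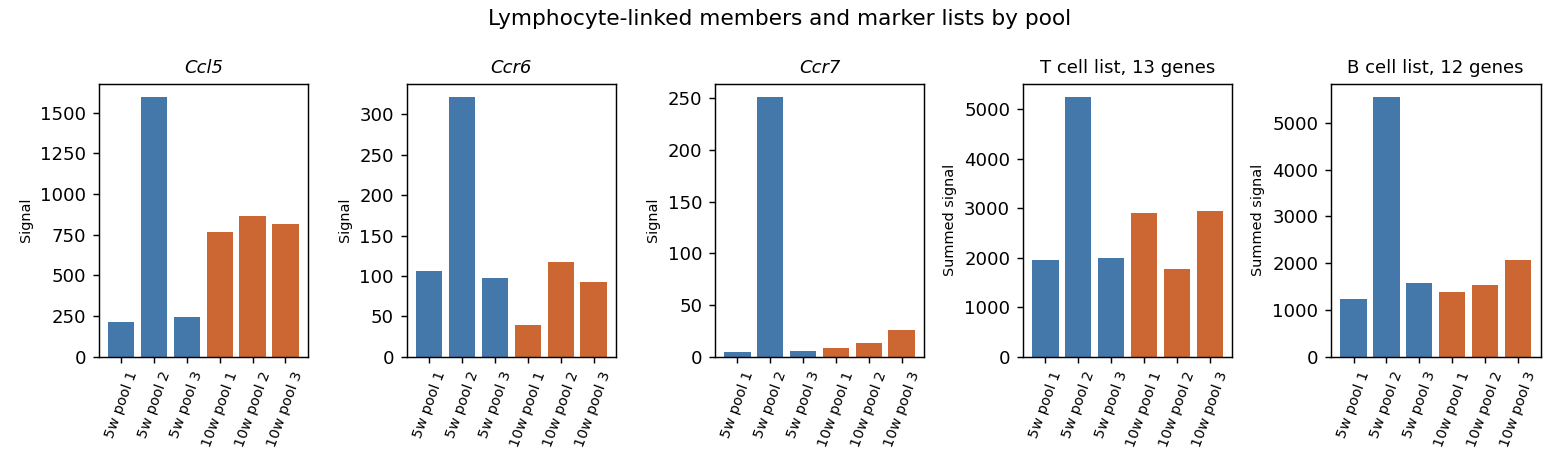
Bars give the signal of Ccl5, Ccr6 and Ccr7 and the summed signal of 13 T cell and 12 B cell markers in each pool, 5 weeks in blue and 10 weeks in orange. 5-week pool 2 is the highest bar in all panels, and Ccl5 is also above the other 5-week pools in all 10-week pools.

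Other ligands made by cytotoxic lymphocytes were Ccl4 and Xcl1. Ccl4, or MIP-1 beta, had signals of 370, 292 and 379 at 10 weeks and 226, 229.9 and 266 at 5 weeks. The ages did not overlap, and the difference of 0.47 ± 0.16 (SE) just missed the threshold (limma, adjusted p = 0.0522). It passed without 10-week pool 2 (0.58, adjusted p = 0.0406) and under several other settings. Xcl1, or lymphotactin, was dim, at 139, 77.4 and 108 at 10 weeks and 63.6, 33.8 and 25.0 at 5 weeks, and with no filter its difference was 0.95 ± 0.27 (SE, limma, adjusted p = 0.0478). Its receptor Xcr1, found on cross-presenting dendritic cells, had overlapping signals of 46.9 to 128 at 10 weeks and 44.9 to 79.4 at 5 weeks. Dendritic cell markers fell in 2 of 7 cases (Clec10a and Zbtb46), with a summed signal of 2076 to 2275 at 10 weeks and 4155 to 4417 at 5 weeks. Much of this gap came from Clec10a, at 503.5 to 670.8 at 10 weeks and 1649.7 to 2633.9 at 5 weeks. Of the 5 that did not pass, Cd209a and Siglech did not overlap, with 10 weeks below, and Irf8, Flt3 and Batf3 overlapped. Among NK cell markers, 2 of 7 tested were higher (Gzmb, 0.96, and Gzma, 0.69), and the summed signal of 8 genes was 1717 to 2169 at 10 weeks and 1254 to 1597 at 5 weeks. Only 1 NK marker was higher when 10-week pool 1, 10-week pool 2 or 5-week pool 3 was left out. The part of NK cells in these values was not tested.

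Tissue-homing ligands and receptors were mostly dim or did not pass. Ccl25, the gut and thymus ligand of Ccr9, had signals of 146 to 171 at 10 weeks and 115 to 142 at 5 weeks. The ages were apart by a small step, with a difference of 0.24 ± 0.17 (SE, limma, adjusted p = 0.311) on its brightest probe set, while its other probe set was called higher (0.93, adjusted p = 0.0317). Ccl27a, the skin ligand of Ccr10, had signals of 374 to 406 at 10 weeks and 364 to 547 at 5 weeks, and a difference of -0.25 ± 0.17 (SE, limma, adjusted p = 0.29). Ccl17 and Ccl22, ligands of Ccr4, had signals of 32.2 to 93.7 and 14.7 to 215 over the 6 pools. Ccl1, Ccl3, Ccr4, Ccr8, Ccr9, Ccr10 and Cxcr5 had signals of 3.3 to 121 in all pools, and the ages overlapped in each. Of 16 member genes with several probe sets, 4 (Cxcl1, Cxcl12, Cxcl15 and Cxcl16) had at least 2 calls in 1 direction and none had calls in both. For Ccl6, Ccl25, Ccr2 and Cx3cl1 the probe sets disagreed in size. Those of Ccl6, Ccr2, Cx3cl1, Cxcl9, Cxcl11, Cx3cr1 and Cxcr6 disagreed on overlap of the ages.

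Genes that act with the members were read in lists. Their counts are a description, beside 15.3% of all genes tested that rose and 18.7% that fell. Of 7 atypical, scavenging or related receptors tested, 4 fell and 0 rose in the limma fit, also at an unadjusted p under 0.05, with a median log2 difference of -0.45. Ackr1, which binds chemokines on venules without signalling, had signals of 484, 504 and 429.5 at 10 weeks and 929.7, 1043 and 1128 at 5 weeks (-1.08 ± 0.13 SE, limma, adjusted p = 0.000442). Cmklr1, the chemerin receptor, fell by 1.29, and Ackr3 by 0.76. The fourth, Ackr2, a scavenger of CC chemokines on lymphatic vessels, had a difference of -0.45 (adjusted p = 0.0374), and it missed the threshold when 10-week pool 1, 2 or 3 (adjusted p = 0.0867, 0.0986 and 0.0748) or 5-week pool 2 or 3 (0.113 and 0.0712) was left out. Ackr2 also missed it with no filter (adjusted p = 0.0534), quantile normalization (-0.37, 0.0744) and averaged probe sets (-0.21, 0.32). Lymphatic endothelial markers fell in 3 of 5 cases. Pf4, a platelet and macrophage CXC chemokine, fell by 0.66 ± 0.12 (SE, limma, adjusted p = 0.00373).

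Of 23 genes of receptor signalling tested, 2 rose and 4 fell, where 34.1% of all genes tested were called. The median was -0.13. Rgs16, which speeds the end of G protein signals, had signals of 3730, 2286 and 2081 at 10 weeks and 573, 185 and 187 at 5 weeks. All its 10-week pools lay far above the 5-week pools, with a difference of 3.11 ± 0.39 (SE, limma, adjusted p = 0.000589). Rgs2, another such regulator, fell by 0.67, and Gnai1, an inhibitory G alpha subunit, by 0.74. Dock2, the leukocyte activator of Rac, fell by 1.52, and Arrb1 by 0.44, while Gnai3 rose by 0.31. Dock2 had signals of 157, 66.1 and 52.1 at 10 weeks and 379, 194 and 361 at 5 weeks. Its 10-week pools 2 and 3 lay under the filter on the mean of all pools, at a signal of 102.5. Gnai3 missed the threshold when 10-week pool 1, 2 or 3 (adjusted p = 0.106, 0.0556 and 0.0936) or 5-week pool 2 or 3 (0.095 and 0.0825) was left out, with no filter (0.0507) or no variance trend (0.0866), and with probe sets averaged (0.00, 0.988). Arrb1 missed it when the same 5 pools were left out in turn (adjusted p = 0.0794, 0.0663, 0.0528, 0.0596 and 0.0734) and with equal array medians (0.0503). Dock2 and the other genes of these lists named past the 3 with the smallest adjusted p of a list were chosen after their values were seen.

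Among 15 genes that cut, shed or hold chemokines, 3 rose and 7 fell, where 34.1% of all genes tested were called. The median was -0.17. Of the 7, Mmp2 and Dpp4 were also counted among the fibroblast markers that fell and Sdc1 as the plasma cell marker that fell, and the part of these cell types in the list was not tested. Mmp12, the macrophage elastase, had signals of 590.4 to 869 at 10 weeks and 39.8 to 49.0 at 5 weeks. Its 5-week signals lay under the filter on the mean of all pools, at a signal of 102.5. Mmp14 and Mmp2, which cut Cxcl12 and monocyte attractants, fell (-1.71 and -1.12). Dpp4, which trims the ends of Cxcl12 and other ligands, had signals of 148, 189.9 and 177 at 10 weeks and 529, 454 and 510.3 at 5 weeks (-1.38 ± 0.15 SE, limma, adjusted p = 0.000318). The proteoglycan genes that hold chemokines at cell surfaces split, with Sdc4 higher (1.15) and Sdc1 and Sdc3 lower (-0.85 and -0.56). Adam10 and Adam17, which shed Cxcl16 and Cx3cl1, did not pass (-0.10 and 0.05, adjusted p = 0.617 and 0.81). Of 14 adhesion genes of leukocyte entry tested, 3 rose and 3 fell, where 34.1% of all genes tested were called. Madcam1, the vascular ligand of gut-homing and gland-homing lymphocytes, had signals of 515, 508.5 and 356 at 10 weeks and 170.4, 152 and 139.5 at 5 weeks (1.39 ± 0.18 SE, limma, adjusted p = 0.000699). Icam1 rose by 0.69, F11r by 0.62, while Jam3 fell by 0.92, Selp, the P-selectin of vessels and platelets, by 0.94 and Jam2 by 0.62.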

How the data were processed

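Total RNA labelled with biotin-UTP was hybridised to 6 arrays, per the labels. The authors deposited a linear signal intensity for each probe set, by an algorithm not given in the sources used here. No per-sample column was left unused. Of 45101 probe sets, 64 controls were left out. Single symbols (34945) came from the platform annotation and 34741 matched RefSeq (GRCm38.p6).

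Signals under 1 were set to 1 and log2(signal + 32) taken, which understates differences of dim genes. Array medians lay within 0.118, so no normalization was added. The dimmest 40% of probe sets were left out, leaving 27022. limma 3.58.1 (R 4.3.3) was run with a variance trend, on age, with 4 residual degrees of freedom, two-sided, with Benjamini-Hochberg adjustment. The steps were tested on simulated data. A permutation of 3 against 3 pools cannot give p under 0.1.

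Pool numbers follow accession order. The labels do not say whether litters or hybridisation days differed, so a difference in these between the ages cannot be told apart from age. The p-values set the age difference against the spread between pools of 3 animals each. The members and lists were chosen with earlier results of these data known. Named members are all that were called, the 10 uncalled with the highest signal, any uncalled difference of at least 1 (none) and a few preset receptors and ligands, and from each pathway list the 3 called genes with the smallest adjusted p. Alternatives changed the offset, filter, normalization, variance model, array weights and probe sets, and left out pools. Plots used Python 3.11.15 and matplotlib 3.10.9.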

Additional observations from a re-analysis of the deposited data

How the results depend on the processing

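The counts of members called were 5 higher and 5 lower. Leaving out 1 pool gave 3 to 5 higher, with 3 without 10-week pool 1, 10-week pool 2, 5-week pool 1 or 5-week pool 3, and 4 to 6 lower. Leaving out 10-week pool 1 and 5-week pool 2 together, a choice made after seeing the data, gave 2 higher and 5 lower. The median difference of the members tested was -0.05, between -0.07 and 0.01 without 1 pool, and 0.09 when 60% of probe sets were left out, where 18 members were tested. Cxcl15, Cxcl12, Cxcl16, Ccl8 and Ccl6 kept their calls in all 17 alternatives run, and Cxcl17 in all but the one without both pools (0.63, adjusted p = 0.0803). The Cxcr6 call was also lost with an offset of 1 (0.0517), array weights (0.0549) or averaged probe sets (0.0501), and that of Ccl24 with no variance trend (0.0519). Ccl4 was called with the 60% filter (0.0455), quantile normalization (0.0412), no variance trend (0.0421), array weights (0.0419) and averaged probe sets (0.0379).

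Members that had not passed changed sign as follows, and none passed. Quantile normalization gave 0.02 for Ccr2 and 0.02 for Ccr1, equal array medians 0.02 for Ccl9, and averaged probe sets 0.09 for Ccl9. Leaving out 1 pool gave -0.22 to 0.13 for Ccl9, -0.16 to 0.02 for Ccr1l1, -0.09 to 0.07 for Ccr1, -0.01 to 0.45 for Cx3cl1, -0.30 to 0.04 for Ccl11 and -0.10 to 0.01 for Ccr2. Without both pools the values were -0.04 for Cxcl14, 0.05 for Ccr1l1, 0.03 for Ccr6 and 0.10 for Cxcl10. For each of these the cause was not tested. No paired analysis was possible because the labels give no replicate numbers. The signal over background is not known, since no detection call was used here, and the few arrays limit precision.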

Other observations

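Genes that induce chemokines were read as a further list of NF-kB subunits, their inhibitors, and inflammatory cytokines and receptors. Of 27 tested, 13 rose and 2 fell, with a median log2 difference of 0.34, where 15.3% of all genes tested rose and 18.7% fell. The count of those that rose was 9 to 12 when 1 pool was left out. The list was chosen with earlier results of these data known, so the counts beside these shares are a description. The part of cell types in them was not tested. Tlr2, a receptor for bacterial lipoproteins, had signals of 2840.3, 1944 and 1683 at 10 weeks and 613, 552 and 567 at 5 weeks (1.81 ± 0.18 SE, limma, adjusted p = 0.000219). Cd14, its co-receptor, was at 5320 to 7563 at 10 weeks and 1441 to 1597 at 5 weeks. Relb, an NF-kB subunit of the non-canonical pathway, rose by 0.85.

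Among the cytokines, Tnf had signals of 427, 275 and 292 at 10 weeks and 144, 57.5 and 70.5 at 5 weeks (1.61 ± 0.28 SE, limma, adjusted p = 0.00304). Its 5-week signals of 57.5 and 70.5 lay under the filter on the mean of all pools, at a signal of 102.5. Il1b stood at 289, 309.5 and 356 at 10 weeks and 153, 160.1 and 121 at 5 weeks (0.99 ± 0.17 SE, limma, adjusted p = 0.00259). Nfkbia and Tnfaip3, inhibitors that NF-kB itself induces, rose by 0.47 and 0.79. The 2 that fell were Il1r1, the signalling receptor of interleukin 1 (-1.49, adjusted p = 0.00478), and Ikbke (-0.88, adjusted p = 0.032). Ikbke missed the threshold when 10-week pool 1 or 2 (adjusted p = 0.0659 and 0.0924) or 5-week pool 1 or 2 (0.0827 and 0.0965) was left out, and with no filter (0.0657). Ifng, Il6, Il1a and Lta were too dim to be tested, at 5.7 to 85.7 in all pools. Tnf, Il1b, Nfkbia, Tnfaip3 and the genes after them were chosen after their values were seen.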
